A study of Mus musculus with 11 samples.

Results

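The major histocompatibility region of the mouse, the H2 complex, lies on chromosome 17. The accessible regions described here are those of the deposited table on chromosome 17 that start between 33900000 and 36500000 (mm10), without the 13 that start between 35480000 and 35530000, around Pou5f1. This rule uses position only and gave 465 of the 248336 regions of the table, against 9790 on the rest of chromosome 17. Accessibility comes from ATAC-seq, which sequences the fragments that Tn5 transposase releases from open chromatin, in 11 libraries of 4 mouse embryonic stem cell lines. All lines were grown in serum medium with LIF, the MEK inhibitor PD0325901 at 1 µM and the GSK3 inhibitor CHIR99021 at 3 µM, and each library came from 100000 cells.

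Each genotype was represented by 1 cell line, and its libraries are called technical replicates in the labels. The line of the inbred strain C57BL/6J (B6, 3 libraries) and that of DBA/2J (D2, 3 libraries) carry their own strain's chromosomes throughout. The line B6-13D2 (2 libraries) is of the congenic strain B6.D2-(rs30079041-rs51756099)/Bakr, which has a D2 interval of chromosome 13 on the B6 background. The line D2-13B6 (3 libraries) has a B6 interval of chromosome 13 on the D2 background. Its sample labels give the strain as D2.B6-(rs29224292-rs13469455)/Bakr, whereas the description of the series gives rs51756099 as the second marker. For chromosome 17 the labels therefore put B6 and B6-13D2 on the B6 background, with 5 libraries, and D2 and D2-13B6 on the D2 background, with 6 libraries. With 1 line per genotype, every difference below is a difference between cell lines, and p-values measure only the spread between libraries of a line.

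The H2 complex holds the genes of antigen presentation. Class Ia molecules (H2-K, H2-D) present peptides from inside the cell to CD8 T cells, class Ib molecules of the Q and T subregions have narrower ligands and restricted receptors, and class II molecules present endocytosed peptides to CD4 T cells. Between these families lie the genes of the immunoproteasome and the peptide transporter, complement and TNF genes, and many genes that all cells use. B6 carries the b haplotype and D2 the d haplotype, which differ in sequence and in gene number. As textbook background, the d haplotype has an H2-L gene beside H2-D1 that the B6 sequence lacks, and the b haplotype has a deletion at the promoter of H2-Ea. Embryonic stem cells are known for low surface class I. In other cells, the class I promoter is known to be driven through a kappa B site, an interferon response element and a module of the X and Y boxes, to which the NLRC5 and RFX proteins bind.

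The promoter sequences of 6 class I genes on which the results turn are printed below from RefSeq (GRCm38.p6), each from 250 bases before to 50 bases after the annotated start, 5′ to 3′ on the gene's strand. Those of H2-K1 (chr17:34000298-34000597, minus strand), H2-D1 (chr17:35262844-35263143, plus strand), H2-Q4 (chr17:35379367-35379666, plus strand), H2-T22 (chr17:36042693-36042992, minus strand) and H2-T23 (chr17:36032652-36032951, minus strand) belong to genes whose promoter regions were more accessible on the D2 background. That of H2-Q2 (chr17:35342057-35342356, plus strand) belongs to a gene whose promoter region was less accessible there. H2-Bl and H2-T24, described further on, had no promoter in the table of sequences. Capitals mark matches on either strand to 4 motifs: GGGATTCCC (a kappa B site, as in class Ia promoters), TTTCACTT (an interferon response core), TGACG (the core of the X2 box) and CCAAT (the core of the Y box). No matches overlapped in these promoters.
H2-K1: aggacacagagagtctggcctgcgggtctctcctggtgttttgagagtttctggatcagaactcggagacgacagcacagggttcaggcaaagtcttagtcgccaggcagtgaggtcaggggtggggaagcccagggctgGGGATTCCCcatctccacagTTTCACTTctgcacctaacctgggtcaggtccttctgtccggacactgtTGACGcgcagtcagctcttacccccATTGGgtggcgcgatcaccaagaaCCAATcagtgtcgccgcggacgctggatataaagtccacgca
H2-D1: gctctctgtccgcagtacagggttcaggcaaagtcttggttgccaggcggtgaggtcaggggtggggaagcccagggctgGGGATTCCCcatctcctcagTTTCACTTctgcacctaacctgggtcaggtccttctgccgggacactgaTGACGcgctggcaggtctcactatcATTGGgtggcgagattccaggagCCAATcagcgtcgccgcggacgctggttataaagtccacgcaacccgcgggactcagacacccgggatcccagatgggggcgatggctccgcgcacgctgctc
H2-Q4: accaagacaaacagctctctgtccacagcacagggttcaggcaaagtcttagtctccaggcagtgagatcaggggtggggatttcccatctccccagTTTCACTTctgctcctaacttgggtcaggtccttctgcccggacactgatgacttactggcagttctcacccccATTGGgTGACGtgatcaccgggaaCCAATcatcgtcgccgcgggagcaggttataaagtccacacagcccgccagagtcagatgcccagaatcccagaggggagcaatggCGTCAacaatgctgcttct
H2-T22: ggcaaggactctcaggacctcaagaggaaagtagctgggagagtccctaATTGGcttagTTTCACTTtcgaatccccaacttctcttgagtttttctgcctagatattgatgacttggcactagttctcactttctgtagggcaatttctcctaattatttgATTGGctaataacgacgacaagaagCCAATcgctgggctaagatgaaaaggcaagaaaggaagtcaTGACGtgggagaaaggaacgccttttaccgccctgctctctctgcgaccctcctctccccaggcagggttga
H2-T23: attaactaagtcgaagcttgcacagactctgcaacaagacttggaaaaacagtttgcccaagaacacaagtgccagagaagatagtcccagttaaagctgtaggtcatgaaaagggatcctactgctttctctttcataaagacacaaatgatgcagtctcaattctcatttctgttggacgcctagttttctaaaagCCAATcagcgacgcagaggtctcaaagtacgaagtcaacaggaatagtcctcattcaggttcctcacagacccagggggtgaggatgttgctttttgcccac
H2-Q2: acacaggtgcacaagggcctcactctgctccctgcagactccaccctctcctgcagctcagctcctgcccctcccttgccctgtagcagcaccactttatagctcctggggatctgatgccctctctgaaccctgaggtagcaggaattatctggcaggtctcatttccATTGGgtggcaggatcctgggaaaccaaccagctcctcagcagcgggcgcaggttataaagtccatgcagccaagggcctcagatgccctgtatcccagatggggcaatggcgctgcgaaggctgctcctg

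The kappa B letters stood in 115 of the 32544 distinct promoters of the RefSeq table (0.353%), and of the class I genes in H2-K1, H2-D1, H2-Q6 and H2-Q7. TTTCACTT stood in 1.61% of the promoters, TGACG in 20.9% and CCAAT in 37.4%. H2-K1 and H2-D1 had all 4 motifs and were identical at 206 of 227 aligned bases (90.7%). H2-Q4 was 87.8% identical to H2-K1 over the aligned bases and held TTTCACTT, TGACG and CCAAT without the kappa B letters. Only the exact letters were searched, so the similar ggggatttccc before TTTCACTT in H2-Q4 was not counted. H2-T22 held the same 3 motifs. H2-T23 and H2-Q2 had a single CCAAT each, read as ATTGG on the printed strand of H2-Q2, and neither of the others. The motif letters did not divide the promoters by direction: H2-T23 was higher on the D2 background with CCAAT only, and H2-Q6 was lower although it held the kappa B letters. A match is a description of the reference sequence, not a measured binding site.

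The window was dense in promoters. Of the 465 regions, 216 (46.5%) lay within 1000 bp of an annotated start site (GENCODE M21) and are termed promoter regions, against 15.4% of all regions tested. The regions were wider than those of the table, with a median of 739 bp against 549 bp, and their median accessibility was 4.38 normalised CPM (counts scaled to TMM-corrected library sizes) against 1.85. By annotation, 173 overlapped a coding exon, 142 were intergenic, 77 intronic, 50 overlapped a non-coding exon and 23 an untranslated region. All 465 passed the filter on low counts, and none had 3 counts or fewer in all libraries of a line. The H2 genes are a family of close copies. As a measure of this, the share of a region's 32-base words that also occur elsewhere in the GRCm38 chromosomes was counted (repeated words), and 160 regions (34.4%) had a share of at least 10%. Reads were 150 bp long, so a read that holds such a word can still be placed by its other bases. The share of repeated words therefore does not count ambiguous reads, and the labels do not give how the authors treated those.

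Total counts per library ran from 15198496 to 43042955, with the D2-background libraries deeper, and the window held 0.387% to 0.444% of them. The rest of chromosome 17 did not shift as a whole: the median log2 CPM of a library differed from the B6 mean by -0.05 to 0.01. That of the window differed by 0.34 in D2-13B6 replicate 2 and by -0.10 to 0.15 in the other libraries. Open promoters of 8 of 8 listed embryonic stem cell markers were found in the table, and no list of markers was at 0. Marker promoters of fibroblasts, which serve as feeder cells, summed to 107 to 144 normalised CPM in D2-13B6, 65.1 to 74.2 in D2 and 48.6 to 60.9 on the B6 background, over 7 of 8 genes with a region. Stem cell marker promoters summed to 177 to 212 in D2-13B6 and to 243 to 279 in the other lines. Trophoblast (83.2 to 113), primitive endoderm (88.5 to 130) and leukocyte marker promoters (30.6 to 43.8) had overlapping ranges. D2-13B6 thus stood apart in 2 marker lists, and in the fibroblast list D2 also lay above the B6 background. By the test given below, 3 of its 7 regions were called higher in D2 against B6-13D2 and in D2-13B6 against B6. Of all promoter regions 18.4% were. The median log2 fold changes of the 7 were 0.45 and 1.15. The part of these marker lists in the differences between the lines was not tested. In such bulk samples, fewer cells with an open site and less opening per cell cannot be told apart.

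The question of this window is how accessibility differs between the backgrounds that carry different H2 haplotypes. It was asked in a pair of comparisons that share no library and in which the chromosome 13 interval is matched: D2 against B6-13D2, with the D2 interval in both lines, and D2-13B6 against B6, with the B6 interval in both. A region was called where edgeR's quasi-likelihood test gave an adjusted p under 0.05 over the 246840 regions tested. Of the 465 regions, 132 (28.4%) were called in D2 against B6-13D2, where 18.8% of all regions were, and 257 (55.3%) in D2-13B6 against B6, against 41.7% of all. Called in both with the same sign were 112 regions (24.1%), against 15.4% of all regions and 16.0% of the rest of chromosome 17. Among promoter regions alone the share was near the background, with 50 of 216 (23.1%) against 22.6% of all promoter regions. Among regions away from start sites it was 62 of 249 (24.9%) against 14.1%. The 112 regions made up 84.8% of the window's calls in the first comparison and 43.6% of those in the second. Over all regions tested, these shares were 81.9% and 36.9%. In the window, 1 further region was called in both with opposite signs.

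Of the 112 regions, 72 were higher and 40 lower on the D2 background, where 10% and 5.38% of all regions were. This split is that of TMM scaling. Scaling by total counts, which moves the median of all regions by -0.13 in the first and -0.29 in the second comparison, gave 65 higher and 65 lower. Loess offsets on abundance, which move it by 0.06 and 0.10, gave 59 and 56. The first comparison alone had 82 higher and 50 lower calls with TMM, where 11.6% and 7.24% of all regions were called, and 75 and 71 with total counts. The second had 157 and 100, where 21.6% and 20.1% of all regions were called, and 127 and 168 with total counts. At least a 2-fold difference in both comparisons was found for 40 of the 112, and the share of this over all regions was not counted. In the first comparison alone, 11.2% of the window was called with at least a 2-fold difference, against 9.81% of all regions. In the second it was 23.7% against 20.9%. The values of all 6 D2-background libraries lay above all 5 B6-background libraries in 105 regions and below them in 56, together 34.6% of the window against 21.8% of all regions (13.0% above and 8.74% below). The median log2 fold change of the 465 was 0.09 and 0.10, against -0.00 and -0.13 over all regions. D2 against B6, which shares its libraries with these comparisons, called 154 of the 465 (33.1%), against 22.5% of all regions. Of these, 89 were higher and 65 lower, where 13.7% and 8.80% of all regions were, and with total counts 77 and 98.

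**Figure D1:**
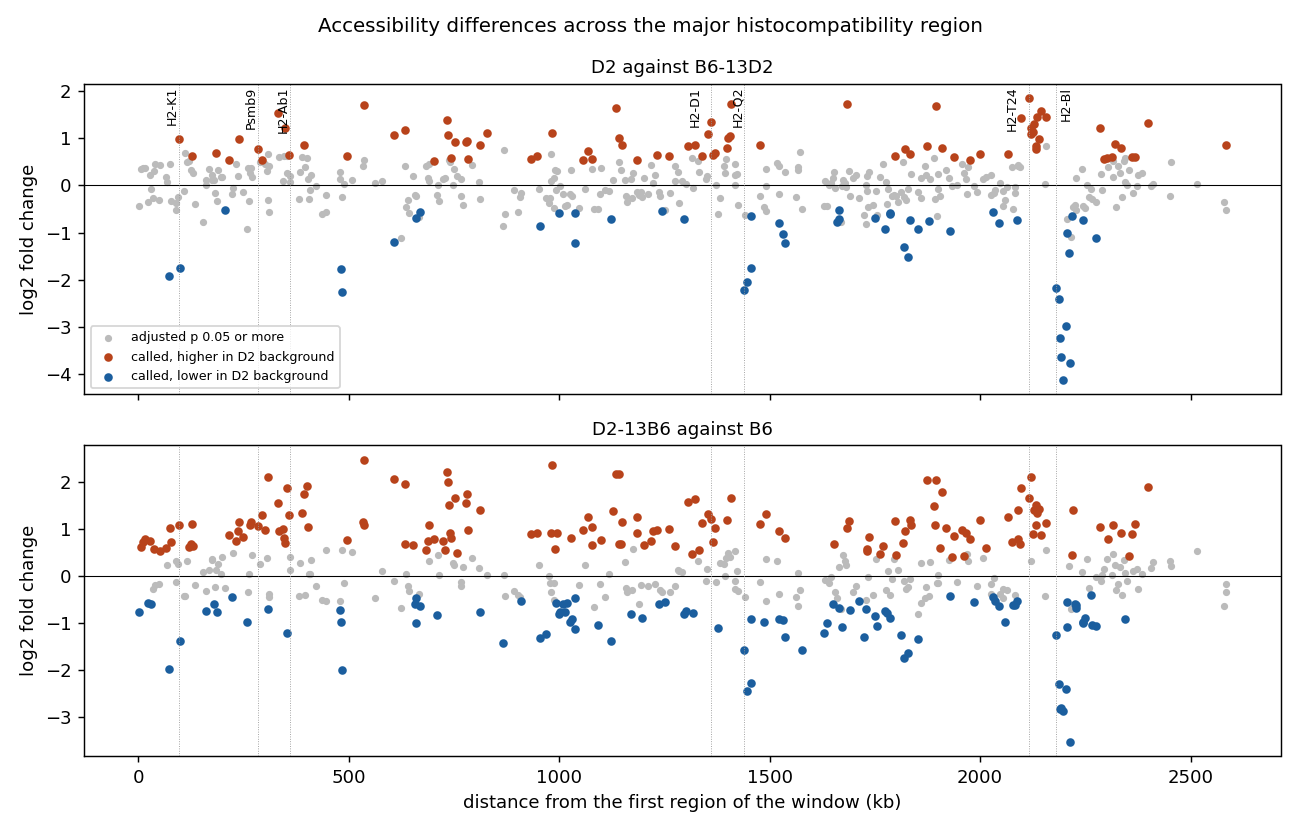
Log2 fold change (vertical axis) of each of the 465 regions by its distance from the first region of the window in kb (horizontal axis), for D2 against B6-13D2 and D2-13B6 against B6. Red and blue points were called at an adjusted p under 0.05, grey points were not, and dotted lines mark the promoter regions of 7 named genes. The group of strongly lower regions near H2-Bl and that of higher regions around H2-T24 appear in both panels.

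**Figure D2:**
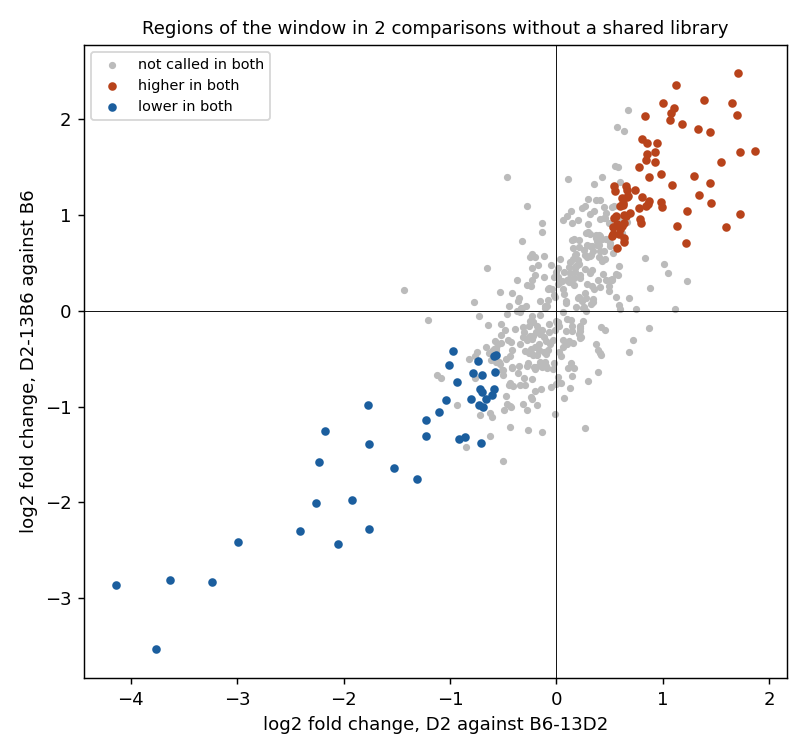
Log2 fold change of the 465 regions in D2 against B6-13D2 (horizontal axis) and in D2-13B6 against B6 (vertical axis), which share no library. The 72 red points were called higher and the 40 blue points called lower in both comparisons, and grey points were not called in both with 1 sign.

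The 2 class Ia genes were more accessible at their promoters on the D2 background. Among all promoter regions with a mean of at least 10 normalised CPM, as these have, 36.8% were higher in both comparisons. The median log2 fold changes of that background were 0.44 and 0.67. At H2-D1, whose product presents peptides to CD8 T cells, the promoter region (chr17:35262302-35264465, coding exon) measured 16.7, 17.3 and 17.7 normalised CPM in B6, 13.2 and 15.0 in B6-13D2, against 40.6, 48.2 and 30.3 in D2-13B6 and 39.0, 35.4 and 32.9 in D2. Every D2-background library was above every B6-background library. The log2 fold change was 1.34 ± 0.20 (SE) for D2 against B6-13D2 (edgeR adjusted p = 5.19e-07) and 1.21 ± 0.17 for D2-13B6 against B6 (adjusted p = 1.73e-08).

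At H2-K1, the other class Ia gene, the promoter region held 12.5, 12.4 and 13.7 normalised CPM in B6, 11.01 and 11.3 in B6-13D2, against 28.1, 32.5 and 21.2 in D2-13B6 and 23.6, 22.04 and 20.8 in D2. The groups did not overlap. The log2 fold changes were 0.99 and 1.08 (edgeR adjusted p = 9.90e-05 and 2.09e-07). The promoters of these genes are 90.7% identical in the letters printed above, and 24.6% of the words of the H2-K1 region and 26.9% of those of the H2-D1 region occur elsewhere in the genome, and how reads matching several class I genes were counted is not given. Neither call was lost in any alternative of scaling, tool or left-out library.

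Class Ib genes moved in both directions. Of 19 listed genes, 16 had a promoter region. The names H2-Q8, H2-Q9 and H2-T9 were not in the annotation, so no region could be assigned to them. In both comparisons 4 rose (H2-Q4, H2-T22, H2-T23, H2-T24), 5 fell (H2-Q2, H2-Q3, H2-Q6, H2-T-ps, H2-Bl) and 7 were not called in both with 1 sign. Over all promoter regions of the table, 22.6% were called in both, 18.4% higher and 4.22% lower. The median log2 fold change of the 16 was 0.24 and 0.21. Of the 16 regions, 12 had at least 10% repeated words.

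H2-T24 had the smallest larger p-value of both comparisons among the higher regions of the window. Its promoter region (chr17:36020436-36021150, coding exon) measured 3.26, 4.76 and 4.03 normalised CPM in B6 and 2.46 and 2.89 in B6-13D2. In D2-13B6 the values were 12.9, 15.3 and 9.49, and in D2 9.62, 9.53 and 10. The lowest D2-background library, at 9.49, was thus above the highest B6-background library, at 4.76. The log2 fold changes were 1.86 ± 0.23 and 1.67 ± 0.19 (SE; edgeR adjusted p = 4.35e-09 and 1.21e-11). None of its 32-base words occurs elsewhere in the genome.

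H2-T23 encodes Qa-1, the ligand of the NKG2A receptor of natural killer cells. Its promoter region held 6.71 to 8.14 normalised CPM in the 5 B6-background and 15.7 to 24.8 in the 6 D2-background libraries, with log2 fold changes of 1.30 and 1.41 (edgeR adjusted p = 1.80e-06 and 5.34e-10). At H2-T22, whose product is a ligand of gamma delta T cells, the line means were 8.33 ± 0.604 in B6, 7.78 ± 1.21 in B6-13D2, against 22.3 ± 5.42 in D2-13B6 and 15.4 ± 2.05 in D2 (SD). The ranges of the backgrounds did not overlap there either. H2-Q4 rose with log2 fold changes of 0.86 and 1.11, and this call was lost without B6-13D2 replicate 1.

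The largest class Ib decreases were at H2-Bl and H2-Q2. H2-Bl is named for its expression in the blastocyst. Its promoter region (chr17:36082691-36084802) held 18.6, 18.2 and 20.05 normalised CPM in B6, 21.1 and 23.2 in B6-13D2, against 7.77, 9.48 and 6.53 in D2-13B6 and 4.33, 5.92 and 4.47 in D2. All D2-background libraries were below 10 normalised CPM and all B6-background libraries above 18. The log2 fold changes were -2.17 ± 0.19 and -1.26 ± 0.17 (SE; edgeR adjusted p = 4.17e-14 and 5.55e-09). Within the D2 background the region was also lower in D2 than in D2-13B6, by -0.69 (adjusted p = 0.00175).

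At H2-Q2 (chr17:35341815-35343505) the B6-background libraries held 8.65, 6.77 and 9.15 (B6) and 8.55 and 9.97 (B6-13D2) normalised CPM, against 2.78, 2.67 and 2.82 in D2-13B6 and 1.92, 1.87 and 2.12 in D2. The log2 fold changes were -2.23 and -1.58 (edgeR adjusted p = 4.90e-13 and 9.01e-11). The other decreases of the list were smaller: H2-Q3 (-0.66 and -0.92), H2-Q6 (-0.80 and -0.92) and the pseudogene H2-T-ps (-1.01 and -0.56). H2-Q3 was not called in both without B6-13D2 replicate 1 or without replicate 2, H2-Q6 without B6-13D2 replicate 1, and H2-T-ps without B6 replicate 3. H2-Q7, which encodes Qa-2, was higher in D2-13B6 against B6 (0.81, adjusted p = 7.63e-05) and not called in D2 against B6-13D2 (0.28, adjusted p = 0.368). These values are of the more accessible of 2 regions within 1000 bp of its starts (chr17:35438724-35439872). The neighbouring region chr17:35439945-35440684 was called lower in both comparisons, where 5.38% of all regions were. H2-T10 was called in both with opposite signs (-0.65 and 0.45).

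**Figure D3:**
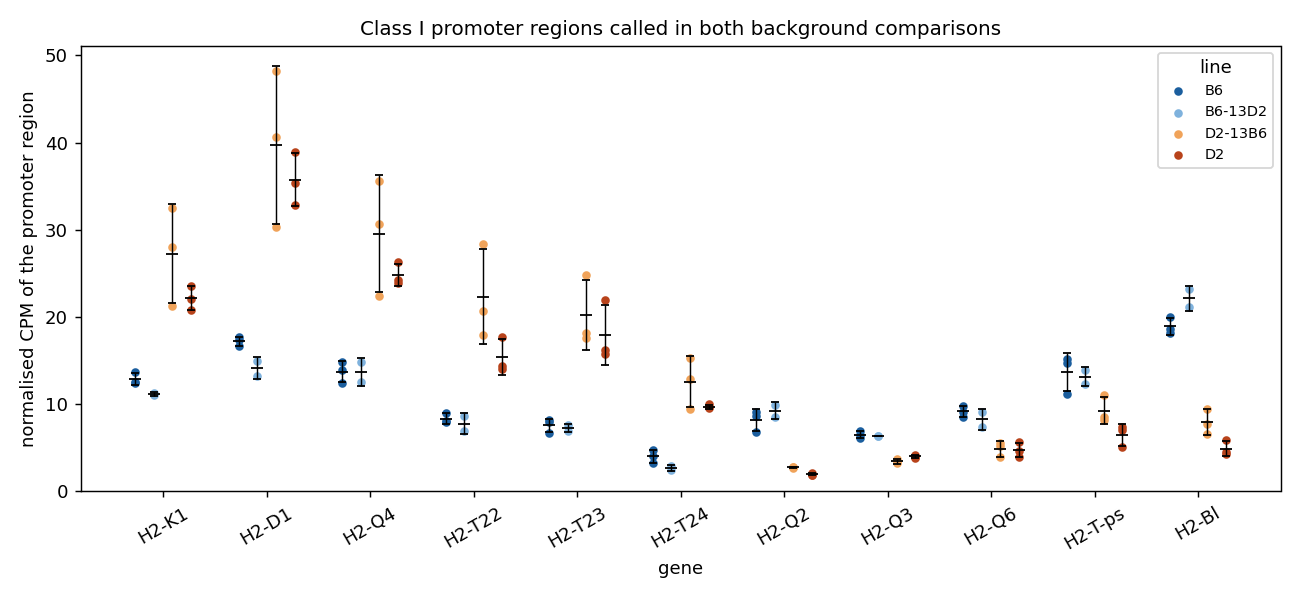
Normalised CPM (vertical axis, from 0) of the promoter regions of 11 class I genes called in both comparisons (horizontal axis), by line. Points are libraries, horizontal marks are line means and bars are the SD over 2 or 3 libraries. In the first 6 genes both D2-background lines lie above both B6-background lines, and in the last 5 they lie below.

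Differences were dense around the H2-T genes. In the 100 kb from 36.0 to 36.1 Mb, 16 of 19 regions (84.2%) were called in both comparisons with 1 sign, 11 higher and 5 lower. Over the 11292 such bins of the table with at least 10 regions, the median was 14.3%, and 7 bins had a share at or above 84.2%. In the window, the share of the other bins with at least 10 of the 465 regions ran from 9.52% to 36.8%. The bin also had a median of 39.1% repeated words, and its part in the result was not tested.

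Most regions of the window called in both comparisons had no adjacent region called with the same sign. The longest runs of adjacent regions with 1 sign, termed blocks, lay at class I genes. How often neighbours share a sign over all chromosomes was not counted. From 36030086 to 36047757, across H2-T23 and H2-T22, 7 adjacent regions were higher on the D2 background. From 36082691 to 36109041, from H2-Bl towards H2-T-ps, 6 adjacent regions were lower. Another block of 4 adjacent higher regions lay from 35257824 to 35275246, around H2-D1. Between the first and the second block, from 36058855 to 36061404, 1 of 3 regions was called in both, and it was higher.

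The strongest decreases of the window lay in and beyond the second block, where D2-background values came close to 0. A region in a non-coding exon of H2-T10 and of Gm7030 (chr17:36116467-36117030) held 2.66, 5.06 and 3.68 normalised CPM in B6 and 4.18 and 4.24 in B6-13D2. The 6 D2-background libraries held 0.268 to 0.363. The log2 fold changes were -3.76 ± 0.32 and -3.53 ± 0.31 (SE; edgeR adjusted p = 1.20e-14 and 9.85e-16). The regions at the start sites of the gene models Gm20530 (chr17:36093839-36094416) and Gm8815 (chr17:36096334-36097658) behaved alike. Gm20530 had line means of 4.21, 3.69, 0.590 and 0.388, and Gm8815 of 3.57, 4.65, 0.531 and 0.373, in the order B6, B6-13D2, D2-13B6 and D2. Repeated words made up 44.7%, 30.8% and 39.1% of these 3 regions. The 200 bases at the centre of the first are printed from GRCm38 (chr17:36116649-36116848, plus strand), because this region had the smallest larger p-value among the lower ones. Capitals mark CCAAT.
Region by H2-T10: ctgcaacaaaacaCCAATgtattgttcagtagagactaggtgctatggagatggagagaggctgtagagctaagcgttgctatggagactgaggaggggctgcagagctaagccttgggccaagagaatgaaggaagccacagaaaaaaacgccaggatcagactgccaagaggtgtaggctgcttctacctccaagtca

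A lower region of this kind also lay beside H2-Q2. The intergenic region 4867 bp from the start of H2-Q2 (chr17:35349865-35350494) measured 2.82 to 4.63 normalised CPM on the B6 background and 0.516 to 0.960 on the D2 background, with log2 fold changes of -2.05 and -2.44. Of its words, 59.2% were repeated. In the window as a whole, the 40 lower regions had a median of 23.3% repeated words and the 72 higher regions of 1.83%. At least 10% repeated words were found in 23 of the 40 lower and 23 of the 72 higher regions. Among the 305 regions with less, 66 were called in both comparisons (21.6%), 49 higher and 17 lower. Among the 160 regions with at least 10%, 46 were called in both (28.75%), 23 higher and 23 lower. Of all regions tested, 10% were called higher and 5.38% lower in both. Reads were aligned to mm10, which is the B6 sequence, and whether D2 reads were placed as often as B6 reads was not tested.

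**Figure D4:**
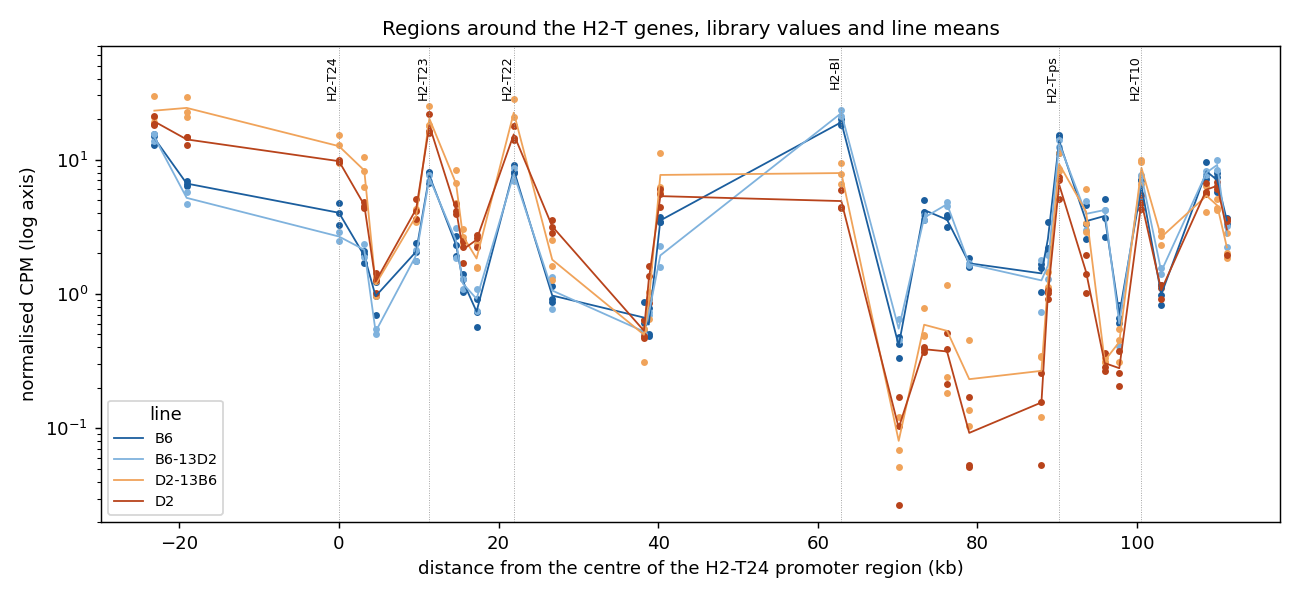
Normalised CPM (vertical log axis) of the regions around the H2-T genes by distance from the centre of the H2-T24 promoter region in kb (horizontal axis). Points are libraries and lines join the means of each line. Both D2-background line means lie above both B6-background line means from H2-T24 to H2-T22, and below them in the 6 adjacent regions that begin at H2-Bl.

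Higher regions were also found away from class I genes, in unique sequence. In an intron of Msh5, a gene of meiotic recombination (chr17:35039451-35039851), values were 2.06, 2.32 and 2.54 normalised CPM in B6 and 1.36 and 1.74 in B6-13D2. They were 8.99, 12.1 and 9.94 in D2-13B6 and 4.75, 5.52 and 4.38 in D2. The log2 fold changes were 1.65 and 2.17 (edgeR adjusted p = 6.59e-07 and 8.52e-15). The groups did not overlap, and D2-13B6 lay above D2 as well. An intronic region of BC051142 (chr17:34438503-34438980) had the same order, with line means of 2.62 ± 0.243 in B6, 1.57 ± 0.169 in B6-13D2, against 14.7 ± 4.76 in D2-13B6 and 5.15 ± 0.922 in D2 (SD). Neither region had a repeated word. The centre of the Msh5 region (chr17:35039552-35039751, GRCm38, plus strand) is printed because it had the smallest larger p-value among higher regions without repeated words away from start sites, and it held none of the 4 motifs.
Region in Msh5: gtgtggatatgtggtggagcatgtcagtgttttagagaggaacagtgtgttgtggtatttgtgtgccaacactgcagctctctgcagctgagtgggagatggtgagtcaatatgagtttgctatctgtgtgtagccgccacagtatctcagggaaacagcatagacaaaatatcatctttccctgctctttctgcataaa

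The remaining higher regions named by the rule were an intronic region of A930015D03Rik 6324 bp from its start (chr17:36000776-36002638), with log2 fold changes of 1.44 and 1.87, and an intergenic region (chr17:35311390-35311834), with 1.73 and 1.66. The first had line means of 6.62, 5.18, 24.2 and 14.1 normalised CPM in the order B6, B6-13D2, D2-13B6 and D2, and the second of 1.82, 1.32, 5.65 and 4.37.

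Class II promoters were called at about the share of all promoters. Of 13 listed genes, 10 had a promoter region, and 2 of these were higher in both comparisons and none was lower, where 18.4% and 4.22% of all promoter regions were. Their median log2 fold change was 0.20 and 0.35. H2-DMb2, a chain of the H2-DM peptide exchanger, measured 2.77 to 3.78 normalised CPM in the B6-background and 4.96 to 10.4 in the D2-background libraries (0.98 and 1.14, edgeR adjusted p = 0.00126 and 2.56e-06). H2-DMa shared its region with Brd2, described with the chromatin genes. Without B6-13D2 replicate 1 neither of the 2 regions was called in both. Only 1 was left without any 1 of the B6 libraries, B6-13D2 replicate 2, D2-13B6 replicate 1, or D2 replicate 1 or 3. The classical class II genes were not called in either comparison: H2-Aa had log2 fold changes of 0.29 and 0.28, H2-Ab1 of 0.08 and 0.41 and H2-Eb1 of -0.09 and 0.05. Their library values lay between 3.03 and 16.2 normalised CPM. H2-Ea-ps and H2-Pb had no promoter region, and the name H2-Ea was not in the annotation.

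The genes of peptide supply lie next to class II. Psmb9 and Psmb8 are subunits of the immunoproteasome, Tap1 and Tap2 form the peptide transporter, and Tapbp encodes tapasin. All 4 promoter regions of these 5 genes were higher in D2-13B6 against B6, and 2 of 4 also in D2 against B6-13D2. Of all promoter regions, 54.6% and 25.4% were called in these comparisons in either direction. Promoter regions with a mean of at least 10 normalised CPM, as these have, were higher in both in 36.8%. The median log2 fold changes of that background were 0.44 in D2 against B6-13D2 and 0.67 in D2-13B6 against B6, and those of the 4 regions 0.50 and 1.02. The region shared by Psmb9 and Tap1, which are transcribed from a common promoter, held 16.9, 22.3 and 22.5 normalised CPM in B6, 17.97 and 17.7 in B6-13D2, against 42.2, 54.1 and 32.8 in D2-13B6 and 34.6, 29.9 and 27.1 in D2. The groups did not overlap, and the log2 fold changes were 0.78 and 1.07 (edgeR adjusted p = 0.00295 and 5.49e-07). Psmb8 followed with 0.54 and 1.31 (adjusted p = 0.0432 and 1.64e-09). Tap2 (0.45, adjusted p = 0.0955) and Tapbp (0.37, adjusted p = 0.173) were not called in D2 against B6-13D2. All 4 regions were lower in D2 than in D2-13B6 (23.8% of all promoter regions were called in that comparison), by -0.90 at Psmb8 to -0.45 at Tapbp. Without B6-13D2 replicate 1, and likewise without replicate 2, none of the 4 was called in both, and without any 1 of the B6 libraries or D2 replicate 1 only 1 was. Without D2-13B6 replicate 3 all 4 were.

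Of 4 listed complement genes, 3 had a promoter region, and 1 was called in both comparisons, where 22.6% of all promoter regions were. All 3 were called in D2-13B6 against B6, 1 higher and 2 lower, where 54.6% of all promoter regions were called. Cfb, which encodes complement factor B, was lower in both comparisons (-0.86 and -1.32, edgeR adjusted p = 0.00414 and 3.04e-07), with 4.18 to 6.08 normalised CPM in B6-background and 1.87 to 3.24 in D2-background libraries, and this call was lost without B6-13D2 replicate 2. C2 was called higher in D2-13B6 against B6 (0.91) and not in D2 against B6-13D2 (0.30), and C4a lower in the former (-0.53) and not in the latter (-0.15). C4b had no promoter region. Of 6 listed genes of the TNF cluster, 4 had a promoter region and none was called in both, while 2 were called in D2-13B6 against B6, in opposite directions. Lta, which encodes lymphotoxin alpha, had log2 fold changes of 0.04 and -0.75, the second with an adjusted p of 0.000237, and Ltb of 0.10 and 0.08. Nfkbil1 had 0.28 and 0.56, the second with an adjusted p of 0.00564, and this value turned to -0.047 with loess offsets on abundance. The only region of the butyrophilin-like genes, at Btnl7-ps, was not called in either.

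Both heat shock regions were higher in both comparisons, Hspa1a with Hspa1l (0.74 and 1.26) and Hspa1b (0.54 and 0.97). Among all promoter regions with a mean of at least 10 normalised CPM, as these have, 36.8% were higher in both. The median log2 fold changes of that background were 0.44 and 0.67. These genes are near copies of each other, with 30.5% and 24.3% repeated words. Without B6-13D2 replicate 1 neither was called in both, and without any 1 of the B6 libraries, B6-13D2 replicate 2, or D2 replicate 1 or 3 only 1 was. With loess offsets on abundance, 1 region was left in each of the class II, peptide supply and heat shock lists.

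Genes of chromatin and transcription and genes that all cells use were higher at about the share of comparable promoters. In the first list 5 of 13 promoter regions were higher in both comparisons, and in the second 12 of 41, with none lower in either list. These are open promoters, so the promoter regions with a mean of at least 10 normalised CPM serve as the background. Of 13985 such regions over all chromosomes, 36.8% were higher and 2.22% lower in both, and in the window 28 (30.8%) and 3 of 91 were. The median log2 fold changes were 0.44 and 0.67 over all chromosomes and 0.35 and 0.67 in the window. The widest region of the window, at Brd2, a bromodomain protein, and H2-DMa (chr17:34116342-34124073), held 72.1 to 81.2 normalised CPM in the B6-background and 105 to 164 in the D2-background libraries. Its log2 fold changes of 0.54 and 0.88 turned to -0.11 and -0.046 with loess offsets on abundance. The other genes called higher in the first list were Rxrb, Nelfe, Mdc1 and Atf6b. In the second, examples were Clic1 (0.87 and 1.15), Bag6 (0.65 and 0.98) and Abcf1 (0.66 and 1.26). Ehmt2, a histone H3 lysine 9 methyltransferase, was not called in D2 against B6-13D2 (-0.19) and lower in D2-13B6 against B6 (-0.59). With loess offsets the first list counted 1 higher and 2 lower and the second 5 and 4, whereas with total counts the second list counted 13 and 3. The 5 higher calls of the first list fell to 0 without B6-13D2 replicate 1, to 0 without replicate 2, to 1 without D2 replicate 1 and to 3 without D2 replicate 3. The 12 of the second list fell to 0, 1 and 3 without the first 3 of these libraries, and rose to 19 or 20 without D2 replicate 2 or without D2-13B6 replicate 2 or 3.

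**Figure D5:**
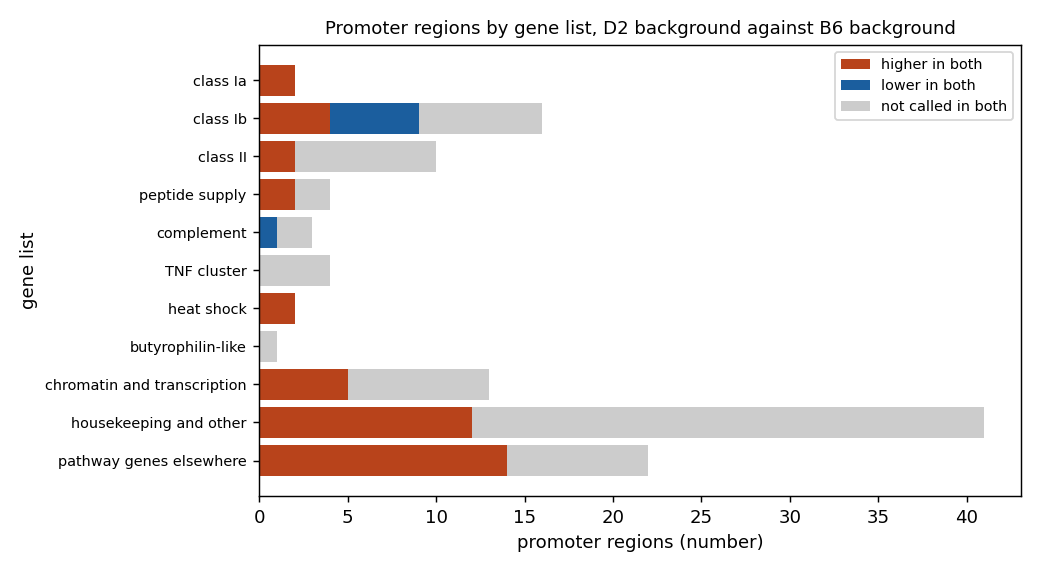
Number of promoter regions (horizontal axis) of each gene list (vertical axis) that were called higher (red), lower (blue) or not called (grey) in both D2 against B6-13D2 and D2-13B6 against B6. Decreases appear in the class Ib list, with 5, and in the complement list, with 1.

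Class I genes depend on partners encoded elsewhere. Of 23 listed genes on other chromosomes or outside the window, 22 had a promoter region and 14 were higher in both comparisons, with none lower. Of all promoter regions 18.4% were higher in both, and of those with a mean of at least 10 normalised CPM 36.8% were. With loess offsets on abundance the 14 fell to 9. Their median log2 fold change was 0.59 and 0.92. B2m, the light chain of class I, held 12.8 to 14.3 normalised CPM in the B6-background and 19.1 to 41.2 in the D2-background libraries (0.57 and 1.23, edgeR adjusted p = 0.0320 and 1.20e-08). Rfx5, which binds the X box, had log2 fold changes of 0.67 and 1.17. Nlrc5, the activator of class I genes, was called in D2-13B6 against B6 (1.18) and not in D2 against B6-13D2 (0.52, adjusted p = 0.0563). Ciita, the activator of class II genes, was called in neither (0.14 and -0.44). The count fell to 2 without B6-13D2 replicate 1, to 2 without replicate 2 and to 6 without D2 replicate 1. H2-K1 and H2-D1 kept both calls in these fits.

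Within a background, the chromosome 17 labels are the same and the lines differ in the chromosome 13 interval. B6-13D2 against B6 gave no call among the 465 regions with edgeR, against 0.474% of all regions. DESeq2 also gave none. At an unadjusted p under 0.05 edgeR counted 29 of the 465, where it counted 18455 of the 246840 regions tested, and DESeq2 counted 18 of the 465. The 2 class Ia promoter regions differed by log2 fold changes of -0.21 at H2-K1 and -0.29 at H2-D1, neither called (adjusted p = 0.903 and 0.825). D2 against D2-13B6 gave 125 calls (26.9%), 28 higher and 97 lower in D2, where 23.7% of all regions were called, 8.53% higher and 15.2% lower. With scaling by total counts, which moves the median of all regions by 0.17, the split was 74 higher and 71 lower, and with loess offsets on abundance 57 and 85.

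The 3 regions most clearly lower in D2 than in D2-13B6 had also been called higher in both background comparisons, which share these libraries. They were the BC051142 region given above (-1.51 ± 0.18, SE, edgeR adjusted p = 6.60e-09), a region 69 bp from a start of Msh5 (chr17:35045079-35045621, -1.27) and an intergenic region 7514 bp from Ier3 (chr17:35812061-35814170, -1.16). The region near Ier3, an early response gene, held 53.9, 79.3 and 58.0 normalised CPM in D2-13B6, 29.2, 30.8 and 25.7 in D2 and 14.6 to 18.9 on the B6 background. The values of the 3 groups did not overlap. The 3 regions most clearly higher in D2 were an intergenic region of which 99.5% is soft-masked repeat (chr17:36487754-36488803, 0.89), one at Gm20546 (chr17:36248509-36249687, 0.86) and one in an intron of 2410017I17Rik (chr17:36147792-36149662, 0.81). In the last, D2-13B6 stood alone with 10.7 to 18 normalised CPM, against 22.6 to 33.7 in the other 8 libraries.

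The most accessible region of the window was not called in any comparison. It is intergenic, 1469 bp from the gene model Gm18604 (chr17:36230937-36232189), and held 209 to 309 normalised CPM in the 11 libraries. Its log2 fold changes were 0.42 for D2 against B6-13D2 and -0.17 for D2-13B6 against B6. The third most accessible region, at Rnf5 and Agpat1 (chr17:34603000-34607041), was higher in both comparisons (0.53 and 0.78) and turned to -0.075 and -0.082 with loess offsets on abundance.

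Whether the difference between the D2-background lines departed from that between the B6-background lines was tested as an interaction. It was called in 26 of the 465 regions (5.59%), against 6.54% of all regions. With TMM 3 were higher and 23 lower, where 1.99% and 4.55% of all regions were. The split was 24 and 15 with scaling by total counts and 19 and 23 with loess offsets on abundance. Without B6-13D2 replicate 2 the count was 2, and without D2-13B6 replicate 3 it was 68.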

How the data were processed

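The authors deposited 1 table of raw read counts per accessible region in each library, and per the file headers duplicates and mitochondrial reads had been removed. The submitters' processing notes name the build mm10 and Trimmomatic 0.39, BWA 0.7.5, Picard 2.0.1, MACS 1.4.2, bedtools 2.9.2 and edgeR 3.34.1. How peaks were merged, how reads with several matches were treated and whether coordinates start from 0 or 1 is not given in the sources used here. Coordinates are printed as deposited.

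Counts of all 248336 regions were filtered with filterByExpr (246840 left), scaled by TMM and fitted with edgeR 4.0.16 (quasi-likelihood, robust) in R 4.3.3, with the 4 lines in one model and Benjamini-Hochberg adjustment over all regions. Log2 fold changes use edgeR's prior count, and a call means an adjusted p under 0.05. Between 2 and 3 libraries per line and 15198496 to 43042955 counts per library set the precision. Start sites came from GENCODE M21, repeated words and centre sequences from GRCm38, promoters from RefSeq (GRCm38.p6), with Python 3.11.15, pandas 2.3.3, numpy 2.4.6 and matplotlib 3.10.9. The fit was also run on simulated counts, drawn for all lines from the B6 means with a single dispersion and known folds in some regions. That setting has no difference in spread between lines, and no result given here rests on it.

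Named regions were the 6 higher and 6 lower with the smallest larger p among those called in both background comparisons without overlap of libraries, the 3 in each direction with the smallest p in D2 against D2-13B6 and in the interaction, the 3 most accessible, and each listed gene's most accessible region within 1000 bp of a start. Class I genes and H2 families were described in full. The window and the gene lists were chosen with earlier results of these data known. Alternatives were other scalings, DESeq2 1.42.0, no filter, a minimum fold of 1.5, a replicate block, only the libraries of a comparison, only regions with under 10% repeated words, a promoter distance of 500 bp and leaving out each library. Loess offsets on GC content and the fit without the D2-13B6 line were added after seeing the data. No value column was left unmapped.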

Additional observations from a re-analysis of the deposited data

Results flagged for a closer look

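The following results were flagged because the 2 within-background differences departed from each other in an interaction test, (D2 minus D2-13B6) minus (B6-13D2 minus B6). Such a difference was called in 26 of the 465 regions (edgeR adjusted p under 0.05). With total counts or loess offsets on abundance the split of directions changed, as given above.

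Among the higher differences, the repeat-rich intergenic region chr17:36487754-36488803 gave 1.04 ± 0.29 (SE, log2; edgeR adjusted p = 0.0196), with a mean of 8.58 normalised CPM in D2 and of 4.62 to 5.22 in the other 3 lines. The region at Gm20546 (chr17:36248509-36249687) gave 0.98 (adjusted p = 0.0212), with D2-13B6 lowest at 3.71 normalised CPM. The promoter region of Ly6g6d (chr17:35073824-35074682) gave 0.93 (adjusted p = 0.0429).

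Among the lower differences, an intronic region of Gm7030 (chr17:36114135-36114707) gave -1.65 (edgeR adjusted p = 0.00376), with D2 lowest at 1.46 normalised CPM and 55.1% repeated words. A second intronic region of Gm7030 (chr17:36123740-36123943) gave -1.86 (adjusted p = 0.00389), with D2-13B6 highest at 2.64 normalised CPM. The region in a non-coding exon of 4833427F10Rik (chr17:35776657-35777693) gave -1.21 (adjusted p = 0.00484), with D2-13B6 highest at 20.3 normalised CPM against 10.02 in D2, 5.65 in B6-13D2 and 4.93 in B6.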

How the results depend on the processing

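With 1 line per genotype the lines and their labelled genotypes cannot be told apart, and B6-13D2, with 2 libraries, limits the precision. A minimum fold of 1.5 left 42 calls in D2 against B6, 33 in D2 against B6-13D2, 128 in D2-13B6 against B6, 14 in D2 against D2-13B6, 0 in the interaction and 29 in both background comparisons. The 305 regions with under 10% repeated words gave 88, 76 and 66 calls in D2 against B6, in D2 against B6-13D2 and in both. The 160 regions with at least 10% gave 66, 56 and 46. Called in both were 21.6% of the former and 28.75% of the latter, and the part of repeated words in this was not tested. B6-13D2 against B6 gave 3 calls with only its own libraries and 1 without the D2-13B6 line. The interaction gave 42 with loess offsets on abundance, and the cause was not tested. Leaving out each library gave 109 to 188 calls in D2 against B6, 62 to 156 in D2 against B6-13D2, 229 to 277 in D2-13B6 against B6, 0 to 1 in B6-13D2 against B6 (1 without D2-13B6 replicate 2), 88 to 179 in D2 against D2-13B6, 57 to 134 in both background comparisons and 2 to 68 in the interaction. Counts moved by over 1.5 times without B6-13D2 replicate 1 (62 in D2 against B6-13D2, 57 in both, 13 in the interaction) and replicate 2 (65, 61 and 2). The interaction also gave 13 without B6 replicate 1, 17 without B6 replicate 3, 68 without D2-13B6 replicate 3, 13 without D2 replicate 1 and 15 without D2 replicate 3. Loess offsets on abundance reversed promoter regions in D2-13B6 against B6 at Daxx (-0.18), Brd2 (-0.046), Rnf5 (-0.082), Nfkbil1 (-0.047), Gtf2h4 (-0.027), Tubb5 (-0.29), Ppp1r10 (-0.22) and Calr (-0.15), and in D2 against B6-13D2 at Brd2 (-0.11), Rnf5 (-0.075) and Ppp1r10 (-0.38), and the cause was not tested. No other alternative in which named regions were followed reversed one. Named regions were not followed in the fit with a minimum fold of 1.5, with only the libraries of a comparison or without the D2-13B6 line. Replicate numbers did not pair the libraries: the 15 same-number pairs correlated by -0.05 to 0.07, and 4 of 11 libraries correlated best with their own number. With the replicate block, 159, 141, 256, 0, 130, 23 and 123 regions were called in D2 against B6, D2 against B6-13D2, D2-13B6 against B6, B6-13D2 against B6, D2 against D2-13B6, the interaction and both background comparisons.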
